A study of Homo sapiens with 6 samples.

Results

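CD201, the endothelial protein C receptor encoded by PROCR, was 1 of the 2 surface proteins by which reprogramming fibroblasts were sorted here. PROCR was described together with thrombomodulin (THBD), tissue factor (F3), the Kunitz inhibitors TFPI and TFPI2, the plasminogen activators PLAT and PLAU, the urokinase receptor PLAUR, and the protease-activated receptors F2R and F2RL1. These 10 genes were taken by symbol from a table of 27788 genes. All 10 were listed and all 10 passed the filter of a mean of at least 1 FPKM (fragments per kilobase of transcript and per unit of library depth), which 12210 genes passed.

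The cells were BJ, an established human foreskin fibroblast line, 8 days after lentiviral delivery of OSKM (OCT4, SOX2, KLF4 and MYC) on the polycistronic constructs O2S and K2M. All groups carried these factors and had grown in 10% serum for 5 days, been passaged onto Matrigel on day 4, and been kept in medium for human embryonic stem cells from day 6. Antibodies to CD13 (aminopeptidase N, gene ANPEP) and CD201 sorted them into 3 groups of 2 poly-A RNA libraries. Double-negative cells lacked both proteins, CD201-only cells lacked CD13 and carried CD201, and double-positive cells carried both. No unsorted or uninfected cells were analysed here. The labels do not say whether the 2 libraries of a group came from separate cultures, so p-values measure the spread between these libraries, which may be technical.

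Tissue factor starts clotting: it binds factor VII, and the complex activates factor X until TFPI blocks it. Thrombin forms further along this cascade. Thrombomodulin turns it into an activator of protein C, which CD201 holds at the cell surface and which shuts clotting down. Thrombin also cuts and switches on F2R (PAR1), and activated protein C bound to CD201 cuts the same receptor. Plasmin, which dissolves clots and matrix, is made from plasminogen by tissue-type (PLAT) or urokinase-type (PLAU) activator. These pathways are best known in endothelium, and fibroblasts carry tissue factor and the urokinase system.

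FPKM values summed to 489152 to 521352 per library, and between 11983 and 12168 genes reached 1 FPKM. Depth, approximated from the steps between the lowest values, was 12.8 to 17.5 M fragments per library, with an interquartile range over 59 genes of 10.2 to 18.9 M for the first double-negative library. Over 6147 genes with at least 10 FPKM, the median coefficient of variation between replicates was 1.87% for double-negative cells, 2.16% for CD201-only cells and 2.72% for double-positive cells. Library correlations were at least 0.9919 within groups and at most 0.9807 between them. In bulk RNA, fewer cells of a type and less RNA per cell cannot be told apart.

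Markers of the labelled cell type were present in every group, but not each of them. Of 18 fibroblast and matrix genes, 2 were under 1 FPKM in both double-negative and 3 in both CD201-only libraries, among them LUM and FAP. THY1 and POSTN had their highest mean in double-negative and S100A4 in CD201-only cells. The other genes of this list had it in double-positive cells. The 18 fibroblast and matrix genes summed to 6270 to 6273 FPKM in double-negative, 6964 to 6987 FPKM in CD201-only and 13839 to 14016 FPKM in double-positive libraries, with S100A4, vimentin (VIM) and THY1 the most abundant by their mean over the 6 libraries. The 14 genes of pluripotent cells summed to 763.3 to 766.0, 616.1 to 620.6 and 313.6 to 318.9 FPKM in the same groups. The 14 endothelial markers, a cell type known for PROCR and THBD, summed to 53.2 to 54.6, 79.2 to 81.9 and 117.9 to 121.0 FPKM, most of it from ENG, TEK and EGFL7. From CD201-only to double-positive cells the mean of ENG went from 34.0 to 73.9 FPKM. TEK went from 25.5 to 19.0 FPKM and EGFL7 from 8.56 to 8.38 FPKM. Among the endothelial genes under the filter, SOX17 was listed at 0 in every library, and PECAM1, EMCN, ERG and CDH5 reached at most 0.0677, 0.0554, 0.0682 and 0.261 FPKM. The other 9 endothelial genes passed the filter, among them KDR at 3.07 and 3.05 FPKM in double-negative, 0.861 and 1.06 FPKM in CD201-only and 0.602 and 0.585 FPKM in double-positive libraries. ROBO4 was at 0.315 and 0.455, 1.07 and 1.12, and 5.25 and 5.54 FPKM in the same groups, the opposite order to KDR. CLDN5 and TIE1 were also lowest in double-negative and highest in double-positive libraries, while ESAM ran like KDR and SOX18 was highest in CD201-only libraries. Of these 9, 2 rose and 6 fell in double-negative against double-positive cells, where 42.1% of all tested genes rose and 24.5% fell. In CD201-only against double-positive cells 3 rose and 4 fell, beside 35.8% and 22.9% of all genes. In double-negative against CD201-only cells 2 rose and 7 fell, beside 21.5% and 16.5%. The counts include ROBO4, KDR and SOX18, which passed the filter only through the double-positive, double-negative and CD201-only libraries, respectively. The filter itself favoured high values of each gene in that group. These marker sums moved with the groups, and their part in the results on the 10 genes was not tested.

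The 10 genes did not share a single pattern among the groups. PROCR and PLAT were low in double-negative cells and high in both CD201-positive groups. PLAU, PLAUR, TFPI, TFPI2 and F2R were low in both CD13-negative groups and high in double-positive cells, like the CD13 gene itself. F3 and F2RL1 went the other way and were lowest in double-positive cells, though F3 was highest in CD201-only and F2RL1 in double-negative cells. THBD was lowest in double-negative, intermediate in CD201-only and highest in double-positive cells.

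**Figure D1:**
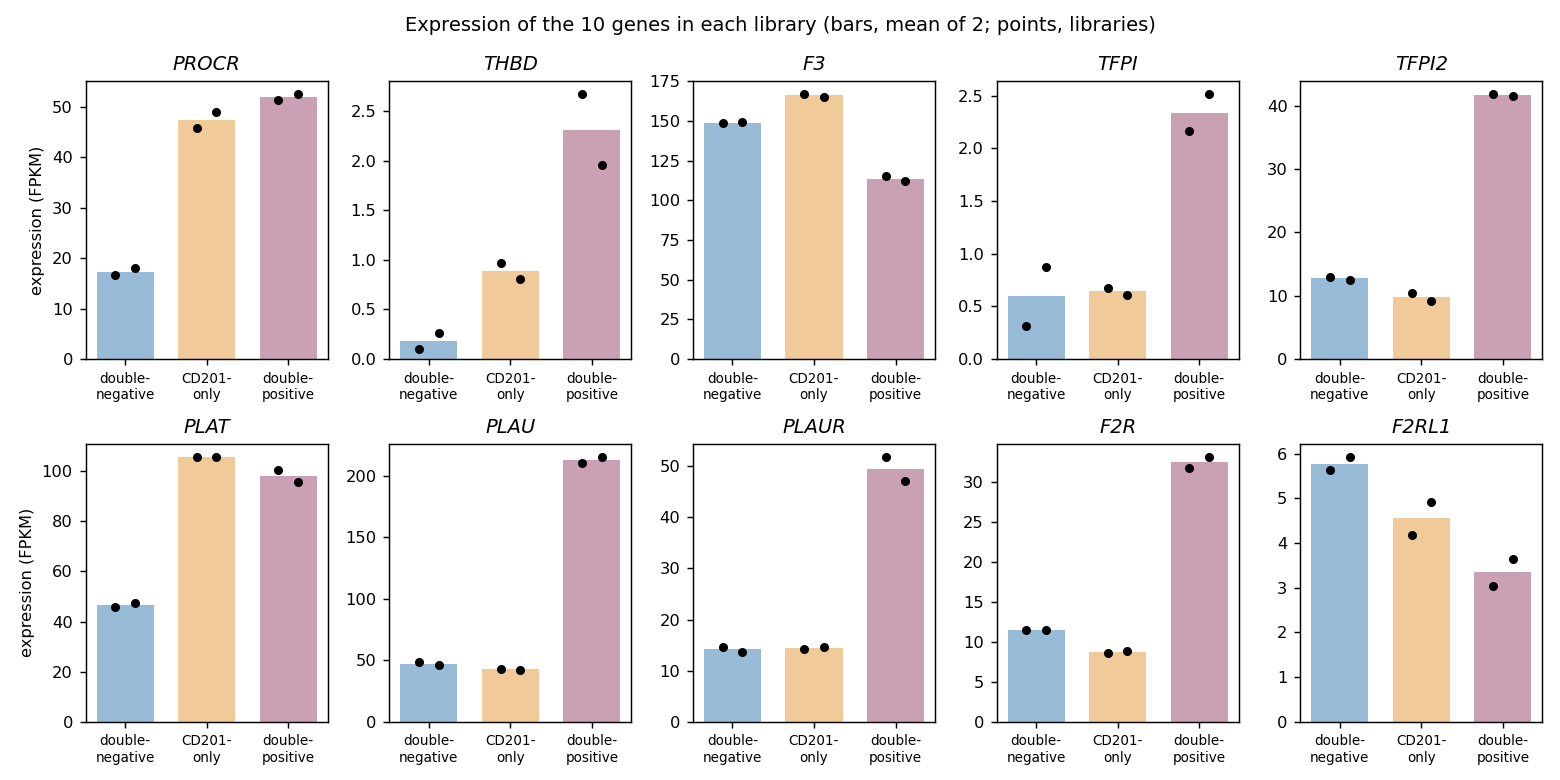
FPKM of each gene on its own linear axis starting at 0; bars, with double-negative cells at the left, CD201-only in the middle and double-positive at the right, show means of 2 libraries, with points for the libraries. PLAU, PLAUR, TFPI2 and F2R stand out in double-positive cells, PROCR and PLAT are low only in double-negative cells among the 3 groups, and F3 is lowest in double-positive cells.

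Promoter sequence is shown for 4 of these genes. F3, PLAUR and TFPI2 were picked because all 3 promoters hold the letters TGANTCA, a motif bound by AP-1 factors. They were also picked by their values, since F3 went against PLAUR and TFPI2 between the groups. Binding or regulation by AP-1 was not tested. PROCR, the sorted receptor, is shown too and holds none, like PLAU, TFPI and F2RL1. Each line gives the 250 bases before the transcription start, 5′ to 3′ on the gene's strand, from RefSeq on GRCh38.p14, with matches to TGANTCA in capitals.
F3, chr1:94541760-94542009, minus strand: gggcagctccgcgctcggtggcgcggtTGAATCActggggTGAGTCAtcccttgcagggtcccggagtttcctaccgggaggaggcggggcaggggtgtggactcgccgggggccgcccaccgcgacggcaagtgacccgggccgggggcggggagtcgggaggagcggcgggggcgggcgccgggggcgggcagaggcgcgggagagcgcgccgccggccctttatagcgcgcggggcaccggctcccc
PLAUR, chr19:43670170-43670419, minus strand: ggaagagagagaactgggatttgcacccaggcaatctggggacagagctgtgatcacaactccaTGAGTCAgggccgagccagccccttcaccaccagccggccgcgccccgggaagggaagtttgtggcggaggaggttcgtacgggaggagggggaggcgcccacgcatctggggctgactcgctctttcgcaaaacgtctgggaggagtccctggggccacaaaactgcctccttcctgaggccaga
TFPI2, chr7:93890754-93891003, minus strand: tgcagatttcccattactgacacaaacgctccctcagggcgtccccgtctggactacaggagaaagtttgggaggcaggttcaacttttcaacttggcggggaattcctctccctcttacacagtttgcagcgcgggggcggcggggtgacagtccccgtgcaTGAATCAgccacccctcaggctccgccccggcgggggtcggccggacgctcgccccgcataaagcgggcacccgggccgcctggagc
PROCR, chr20:35171822-35172071, plus strand: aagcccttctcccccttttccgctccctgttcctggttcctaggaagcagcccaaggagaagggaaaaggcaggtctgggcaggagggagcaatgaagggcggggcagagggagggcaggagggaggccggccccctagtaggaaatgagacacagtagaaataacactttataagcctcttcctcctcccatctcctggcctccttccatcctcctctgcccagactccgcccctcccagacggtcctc

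F3 held 2 matches, with first bases at -223 and -210 from the start, PLAUR held 1 at -186 and TFPI2 held 1 at -87. Of 35116 promoters of this length, 6.57% held TGANTCA on either strand (it reads the same on both). Among the 7 genes with a promoter entry, the others, PLAU with its 2 listed starts, TFPI, F2RL1 and PROCR, held no match in this window. The SP1 and KLF letters GGGCGG, searched on both strands, occurred in 42.6% of promoters: 4 times in F3, 2 times each in TFPI2, F2RL1 and PROCR, 3 times at 1 of the PLAU starts, and not in PLAUR or TFPI. The TEAD letters GGAATG, found in 11.9% of promoters, occurred once in F2RL1, where the octamer ATGCAAAT, found in 1.63%, also occurred once. TATAAA, found in 10.7%, stood once in F3 and once in PROCR, and the E-box CACGTG, found in 6.34%, in none of the 7. Promoters of PLAT, THBD and F2R are not shown.

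Double-negative cells were set against double-positive cells to see which of these genes differ when both sorted proteins are absent. All 10 genes were called, 2 higher and 8 lower, where 66.6% of all 12210 tested genes were called, 42.1% higher and 24.5% lower. All 8 that fell did so by at least 1 on the log2 scale, as did 4.67% of all genes, and 6.68% of all genes moved that far either way. Of the 10 genes 0 rose by that much, beside 2.01% of all genes. The libraries of the groups did not overlap for any of the 10 genes, nor for 83.3% of all genes. The median of the 10 changes was -1.45, beside 0.11 over all genes. The counts and this median include PROCR, whose fall checks the CD201 gate and is no finding. They also include THBD and TFPI, which passed the filter only through the double-positive libraries, so the filter itself favoured falls for them.

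CD201-only cells were set against double-positive cells to see which genes differ with CD13 among cells that carry CD201. Here 9 of the 10 genes were called, 3 higher and 6 lower, beside 58.7% of all genes, 35.8% higher and 22.9% lower. Falls of at least 1 on the log2 scale were called for 5 genes and for 4.12% of all genes, with 4.8% moving that far either way, and rises of that size for 0 of the 10 genes and 0.68% of all genes. The groups did not overlap for any of the 10 genes, nor for 79.3% of all genes. The median change was -0.91, beside 0.08 over all genes. The lower calls include THBD and TFPI, and the falls of at least 1 include TFPI. Both genes passed the filter only through the double-positive libraries, so the filter itself favoured falls for them. Without CD201-only replicate 2 the number of higher calls was 1, F3. Both comparisons use the same double-positive libraries.

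Double-negative cells were set against CD201-only cells to see which genes differ with CD201 among cells that lack CD13. Of the 10 genes 7 were called, 3 higher and 4 lower, beside 37.9% of all genes, 21.5% higher and 16.5% lower. PROCR and PLAT were the 2 that fell by at least 1, as did 1.18% of all genes, with 2.21% moving that far either way, and 0 of the 10 genes rose by that much, beside 1.03% of all genes. The groups did not overlap for 8 of the 10 genes and for 71.9% of all genes. The median change was -0.04, beside 0.04 over all genes. These counts and the median include PROCR, whose fall checks the CD201 gate and is no finding. Over the 3 groups at once, the F test called all 10 genes, and 73% of all genes.

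**Figure D2:**
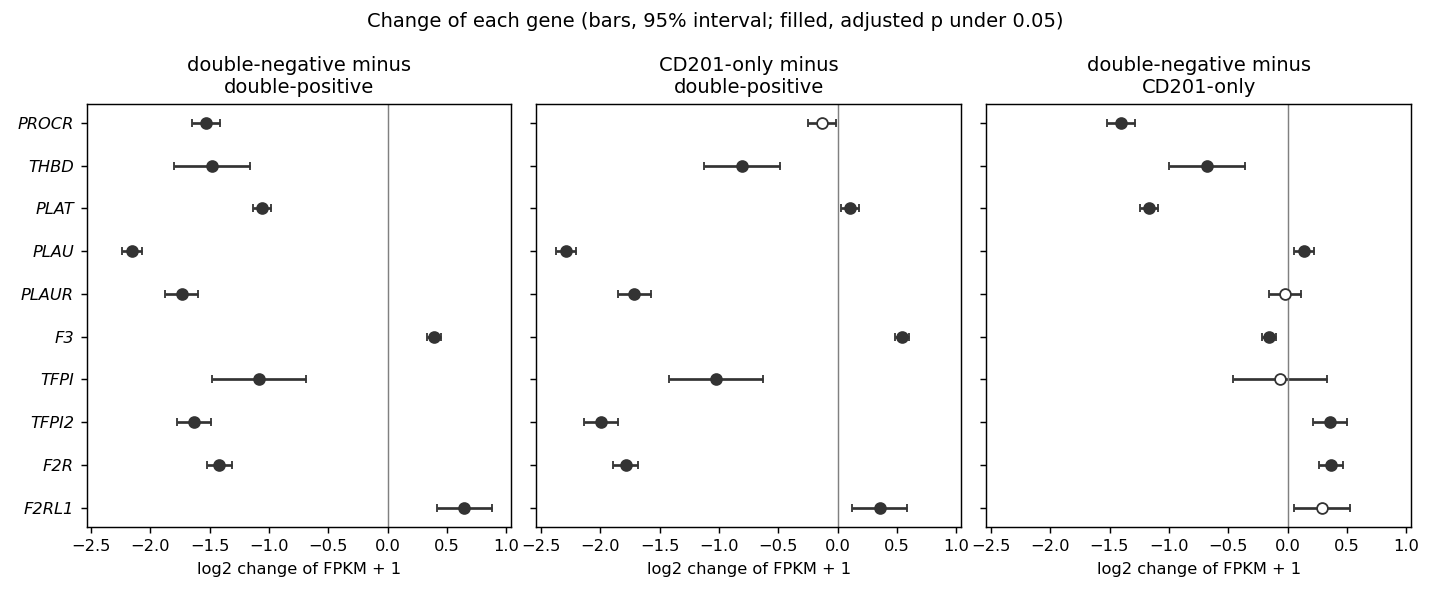
Change of log2(FPKM + 1) with its 95% interval for each gene in the 3 comparisons; filled points have an adjusted p under 0.05. PROCR and PLAT lie at -1.53 and -1.06 for double-negative against double-positive cells but at -0.13 and 0.11 for CD201-only against double-positive cells, whereas PLAU lies at -2.15 and -2.29.

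PROCR itself was at 16.6 and 18.0 FPKM in double-negative cells, 45.8 and 49.1 FPKM in CD201-only cells and 51.3 and 52.5 FPKM in double-positive cells. The double-negative libraries lay far below the others, and since CD201 defined the gate this checks the sort and is no finding. The message was not absent from CD201-negative cells: its double-negative mean was 0.333 of the double-positive mean, and it stood above 64.2% of the tested genes in that group. Between the groups that both carry CD201, PROCR changed by -0.13 (95% interval -0.25 to -0.01, adjusted p = 0.0606) and was not called. The fall passed with median-ratio rescaling (adjusted p = 0.0138), with quantile normalization (adjusted p = 0.0178), with a replicate block (adjusted p = 0.0222) and without CD201-only replicate 2 (adjusted p = 0.0449).

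ANPEP, the other sorted gene, was at 35.7 and 36.2 FPKM in double-negative, 29.1 and 28.7 FPKM in CD201-only and 157.8 and 152.7 FPKM in double-positive cells. Its 2 double-positive libraries were the highest, which likewise checks the gate.

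PLAT encodes tissue-type plasminogen activator, the main activator in blood. It was at 45.8 and 47.2 FPKM in double-negative cells, 105.5 and 105.7 FPKM in CD201-only cells and 100.3 and 95.7 FPKM in double-positive cells. The double-negative libraries were the lowest, and PLAT fell by 1.06 (SE 0.0327, adjusted p = 5.2e-07) against double-positive and by 1.17 (adjusted p = 1.17e-06) against CD201-only cells. Its double-negative mean was 0.474 of the double-positive mean and 0.44 of the CD201-only mean. Between CD201-only and double-positive cells the change was 0.11 (adjusted p = 0.0263). Median-ratio rescaling ended that call (0.04, adjusted p = 0.362), as did quantile normalization (0.06, adjusted p = 0.127) and a fit with no variance trend (adjusted p = 0.0843). It was also lost without CD201-only replicate 1 (adjusted p = 0.0901), CD201-only replicate 2 (adjusted p = 0.0956) or double-positive replicate 2 (0.07, adjusted p = 0.105).

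PLAU encodes urokinase, the activator that works at the cell surface in tissues. PLAU was at 48.5 and 45.8 FPKM in double-negative cells, 43.2 and 42.1 FPKM in CD201-only cells and 210.1 and 215.3 FPKM in double-positive cells. Both CD13-negative groups lay close together, far below double-positive cells. PLAU changed by -2.15 in double-negative cells (SE 0.0355, adjusted p = 4.34e-08) and by -2.29 in CD201-only cells (adjusted p = 3.74e-08), both against double-positive cells. By absolute change of log2(FPKM + 1) PLAU ranked 70 and 74 among the 12210 genes. Between double-negative and CD201-only cells it differed by 0.14 (adjusted p = 0.02), a call that ended when double-negative replicate 1 was left out (0.10, adjusted p = 0.12), or CD201-only replicate 1 (adjusted p = 0.0515) or CD201-only replicate 2 (adjusted p = 0.1). Median-ratio rescaling (adjusted p = 0.0607), a fit with no variance trend (adjusted p = 0.068) and averaging of the 2 double-negative libraries (adjusted p = 0.0515) ended it too. The noncoding gene C10orf55 overlaps PLAU, and it reached at most 0.524 FPKM.

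PLAUR encodes the receptor that holds urokinase on the membrane. It was at 14.7 and 13.6 FPKM in double-negative, 14.2 and 14.6 FPKM in CD201-only and 51.8 and 47.1 FPKM in double-positive cells. The CD13-negative libraries overlapped with each other and lay below both double-positive libraries. PLAUR changed by -1.74 in double-negative cells (SE 0.0581, adjusted p = 7.18e-07) and by -1.71 in CD201-only cells (adjusted p = 1.02e-06), both against double-positive cells. Its change in double-negative against CD201-only cells was -0.02 (95% interval -0.16 to 0.12, adjusted p = 0.792).

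F3, tissue factor, was the most abundant of the 10 messages per length in both CD13-negative groups. It was at 148.9 and 149.1 FPKM in double-negative, 166.8 and 165.4 FPKM in CD201-only and 115.2 and 112.1 FPKM in double-positive cells. The 3 groups did not overlap, with CD201-only cells highest and double-positive cells lowest. F3 rose by 0.39 in double-negative cells (SE 0.0246, adjusted p = 1.2e-05) and by 0.54 in CD201-only cells (adjusted p = 3.05e-06), both against double-positive cells, and fell by 0.16 (adjusted p = 0.00265) in double-negative against CD201-only cells. Each of these calls was kept under all 17 alternatives.

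TFPI2, a Kunitz inhibitor that fibroblasts and placenta secrete into matrix, was at 12.98 and 12.51 FPKM in double-negative cells, 10.4 and 9.11 FPKM in CD201-only cells and 41.8 and 41.6 FPKM in double-positive cells. The groups did not overlap, and double-positive cells stood far above the others. It changed by -1.64 in double-negative cells (SE 0.0607, adjusted p = 1.09e-06) and by -1.99 in CD201-only cells (adjusted p = 6.5e-07), both against double-positive cells. Double-negative cells were higher than CD201-only cells by 0.36 (adjusted p = 0.00368).

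TFPI, the inhibitor of the tissue factor complex, was low throughout, at 0.314 and 0.874 FPKM in double-negative, 0.673 and 0.609 FPKM in CD201-only and 2.16 and 2.51 FPKM in double-positive cells. The double-negative libraries spanned the CD201-only ones, and both groups lay below double-positive cells. TFPI changed by -1.09 in double-negative cells (SE 0.167, adjusted p = 0.00101) and by -1.02 in CD201-only cells (adjusted p = 0.00165), both against double-positive cells. The difference between the CD13-negative groups was -0.06 (95% interval -0.46 to 0.33, adjusted p = 0.789). At these levels log2(FPKM + 1) understates ratios: the double-negative and CD201-only means were 0.254 and 0.274 of the double-positive mean.

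THBD, thrombomodulin, was the lowest of the 10 genes in double-negative cells, at 0.106 and 0.259 FPKM, against 0.972 and 0.808 FPKM in CD201-only and 2.67 and 1.96 FPKM in double-positive cells. The first double-negative value corresponds to about 5.67 fragments and the second to about 16.2, so counting error is large there. The groups nevertheless did not overlap. THBD changed by -1.48 in double-negative cells (SE 0.135, adjusted p = 7.27e-05) and by -0.80 in CD201-only cells (adjusted p = 0.00189), both against double-positive cells, and by -0.68 (adjusted p = 0.00739) in double-negative against CD201-only cells. Leaving out double-negative replicate 1 ended the last call (-0.58, adjusted p = 0.0519). The double-negative mean was 0.0788 and the CD201-only mean 0.385 of the double-positive mean.

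F2R (PAR1), the main thrombin receptor of fibroblasts, was at 11.5 and 11.6 FPKM in double-negative, 8.59 and 8.82 FPKM in CD201-only and 31.8 and 33.2 FPKM in double-positive cells. The groups did not overlap, with CD201-only cells lowest and double-positive cells highest. It changed by -1.42 in double-negative cells (SE 0.0434, adjusted p = 4.97e-07) and by -1.79 in CD201-only cells (adjusted p = 2.68e-07), both against double-positive cells, and was higher by 0.37 (adjusted p = 0.000694) in double-negative than in CD201-only cells.

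F2RL1 (PAR2), a receptor cut by trypsin-like proteases and by the tissue factor complex but not by thrombin, ran the other way. It was at 5.62 and 5.92 FPKM in double-negative, 4.18 and 4.92 FPKM in CD201-only and 3.04 and 3.65 FPKM in double-positive cells. The groups did not overlap, and F2RL1 rose by 0.64 in double-negative cells (SE 0.098, adjusted p = 0.000945) and by 0.35 in CD201-only cells (adjusted p = 0.0178), both against double-positive cells. The rise in CD201-only cells was lost without the filter on low genes (adjusted p = 0.0539), without CD201-only replicate 2 (0.26, adjusted p = 0.105) or double-positive replicate 1 (0.25, adjusted p = 0.0908). F2RL1 was at 0.29 (adjusted p = 0.0545) in double-negative against CD201-only cells, and was called under 6 of 16 alternatives, with adjusted p from 0.023 to 0.255. F2R lies between F2RL2 and F2RL1 on chromosome 5, with no other protein-coding gene between F2R and either of them in RefSeq on GRCh38.p14.

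Ratios between genes within a library are free of its scaling factor, which both genes share. FPKM is per length, so levels of different genes can be set side by side. F3 stood at 11.2 and 11.1 times the summed TFPI and TFPI2 in double-negative, 15.1 and 17.0 times in CD201-only and 2.62 and 2.54 times in double-positive cells. PLAT over PLAU, a ratio chosen after the values were seen, was 0.944 and 1.03 in double-negative, 2.44 and 2.51 in CD201-only and 0.478 and 0.445 in double-positive cells. CD201-only cells thus had the highest and double-positive cells the lowest values of both ratios. PLAU over PLAUR was 3.3 and 3.36 in double-negative, 3.05 and 2.89 in CD201-only and 4.05 and 4.57 in double-positive cells. With 2 libraries a group an exact permutation test cannot reach 0.05, and no test was made of these ratios.

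**Figure D3:**
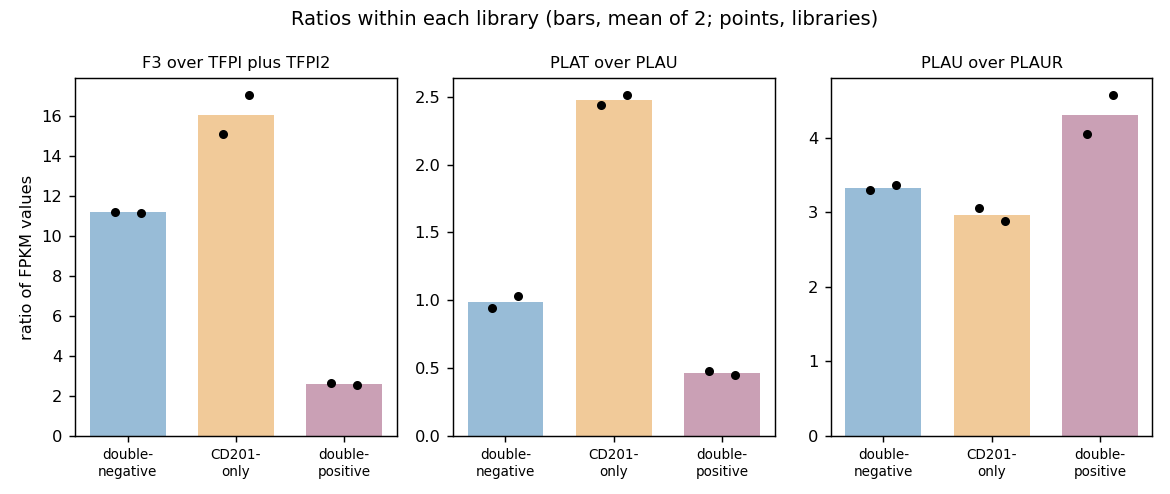
Ratios of FPKM values within each library on linear axes starting at 0, with double-negative cells at the left, CD201-only in the middle and double-positive at the right; bars are means of 2 libraries and points the libraries. CD201-only cells have the highest ratio of F3 to summed TFPI and TFPI2, mostly TFPI2 (15.1 and 17.0), and of PLAT to PLAU (2.44 and 2.51).

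The partners of these genes were taken from 5 lists. Of 20 genes of the plasminogen system 12 were tested. In double-negative against double-positive cells 4 rose and 6 fell, beside 42.1% and 24.5% of all genes (median -0.30, beside 0.11 over all genes). In CD201-only against double-positive cells 4 rose and 6 fell, beside 35.8% and 22.9% (median -0.23, beside 0.08). In double-negative against CD201-only cells 5 rose and 5 fell, beside 21.5% and 16.5% (median 0.04, beside 0.04). Plasminogen itself, PLG, was listed at 0 in all 6 libraries. SERPINB2, an inhibitor of urokinase, was at 0.239 and 0.45 FPKM in double-negative, 0.232 and 0.148 FPKM in CD201-only and 2.43 and 2.78 FPKM in double-positive cells, changes of -1.42 in double-negative and -1.60 in CD201-only cells (adjusted p = 4.39e-05 and 3.01e-05). SERPINB2 passed the filter only through the double-positive libraries, which itself favoured a fall. SERPINE2, protease nexin 1, which inhibits thrombin and urokinase, changed by -0.69 in double-negative and by -0.29 in CD201-only cells. The endocytic receptors LRP1, which clears activator and inhibitor complexes, and MRC2, which associates with the urokinase receptor, also fell, LRP1 changing by -0.91 and -0.54 and MRC2 by -0.59 and -1.02 in double-negative and CD201-only cells.

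Of 22 clotting genes 7 passed the filter, and F2 (prothrombin) and F7 reached at most 0.138 and 0.239 FPKM in any library. F10, the target of the tissue factor complex, was at 1.85 and 2.24 FPKM in double-negative, 2.09 and 2.0 FPKM in CD201-only and 8.81 and 7.60 FPKM in double-positive cells. F10 changed by -1.60 in double-negative cells (SE 0.0975, adjusted p = 9.97e-06) and by -1.59 in CD201-only cells (adjusted p = 1.23e-05), both against double-positive cells. VKORC1, which recycles vitamin K for these factors, changed by -0.57 in double-negative and by -0.90 in CD201-only cells, while its paralog VKORC1L1 rose by 0.39 and 0.27, and LMAN1, a cargo receptor for factors V and VIII, was at -0.00 in double-negative cells (adjusted p = 0.937) and fell by 0.35 in CD201-only cells. Of the 7, 3 rose and 2 fell in double-negative against double-positive cells, beside 42.1% and 24.5% of all genes (median 0.00, beside 0.11 over all genes). In CD201-only against double-positive cells 1 rose and 5 fell, beside 35.8% and 22.9% (median -0.31, beside 0.08). In double-negative against CD201-only cells 4 rose and 0 fell, beside 21.5% and 16.5% (median 0.16, beside 0.04). In that last comparison limma gave 0 falls at an unadjusted p under 0.05.

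Of 12 anticoagulant genes 3 were tested. PROC, the protein C zymogen that CD201 binds, was at 2.69 and 2.58 FPKM in double-negative, 2.60 and 2.05 FPKM in CD201-only and 1.71 and 1.44 FPKM in double-positive cells, and rose by 0.50 (adjusted p = 0.00485) and 0.37 (adjusted p = 0.0218) against double-positive cells. Its cofactor protein S, PROS1, was under the filter at 1.01 and 1.18, 0.592 and 0.562, and 1.10 and 1.0 FPKM in double-negative, CD201-only and double-positive libraries. GAS6, a relative of protein S that activates the receptor AXL, changed by -0.80 in double-negative and by -0.65 in CD201-only cells. The third, ANXA5, was not called in any comparison, so 1 rose and 1 fell against double-positive cells in both comparisons. Of all genes, 42.1% rose and 24.5% fell in double-negative cells there, and 35.8% rose and 22.9% fell in CD201-only cells. The medians were -0.03 in double-negative cells (beside 0.11 over all genes) and 0.10 in CD201-only cells (beside 0.08). In double-negative against CD201-only cells 0 rose and 1 fell, beside 21.5% and 16.5% of all genes (median -0.13, beside 0.04). There limma gave 0 rises at an unadjusted p under 0.05.

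Of 11 further protease-activated receptors and signalling partners 10 were tested. F2RL2 (PAR3), a cofactor receptor beside F2R in the genome, was at 1.30 and 1.05 FPKM in double-negative, 0.386 and 0.649 FPKM in CD201-only and 4.03 and 3.96 FPKM in double-positive cells. It changed by -1.21 in double-negative cells (SE 0.113, adjusted p = 8.5e-05) and by -1.72 in CD201-only cells (adjusted p = 1.75e-05), in the direction of F2R and against that of F2RL1. F2RL2 passed the filter only through the double-positive libraries, which itself favoured these falls, and the counts of this list include it. F2RL3 (PAR4) reached at most 0.369 FPKM in any library. S1PR1, the sphingosine receptor through which CD201-bound protein C acts on endothelium, was at 7.39 and 7.55 FPKM in double-negative, 16.2 and 15.6 FPKM in CD201-only and 15.9 and 15.9 FPKM in double-positive cells. It fell by 1.00 in double-negative against both other groups, and its change in CD201-only against double-positive cells was 0.00 (adjusted p = 0.995), a pattern of groups like that of PROCR and PLAT. S1PR3, another sphingosine receptor, changed by -0.96 in double-negative and by -0.47 in CD201-only cells against double-positive cells, and the polarity gene PARD3 rose by 0.76 in double-negative cells and was at -0.09 (adjusted p = 0.457) in CD201-only cells. In all, 1 rose and 4 fell in double-negative against double-positive cells, beside 42.1% and 24.5% of all genes (median -0.09, beside 0.11 over all genes). In CD201-only against double-positive cells 2 rose and 3 fell, beside 35.8% and 22.9% (median -0.04, beside 0.08). In double-negative against CD201-only cells 2 rose and 4 fell, beside 21.5% and 16.5% (median -0.05, beside 0.04).

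All 9 regulators of how tissue factor is exposed at the membrane were tested. CAV1, caveolin 1, was at 123.3 and 121.1 FPKM in double-negative, 64.3 and 67.8 FPKM in CD201-only and 267.9 and 277.5 FPKM in double-positive cells, changes of -1.15 in double-negative and -2.03 in CD201-only cells. FLOT1, a raft scaffold, rose by 0.42 in double-negative cells, and SMPD1, acid sphingomyelinase, changed by -0.50 in double-negative and by -0.47 in CD201-only cells. Against double-positive cells 5 rose and 2 fell in double-negative cells, beside 42.1% and 24.5% of all genes (median 0.14, beside 0.11 over all genes). In CD201-only cells 2 rose and 3 fell against double-positive cells, beside 35.8% and 22.9% (median 0.05, beside 0.08). In double-negative against CD201-only cells 6 rose and 0 fell, beside 21.5% and 16.5% (median 0.25, beside 0.04). There limma gave 0 falls at an unadjusted p under 0.05.

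**Figure D4:**
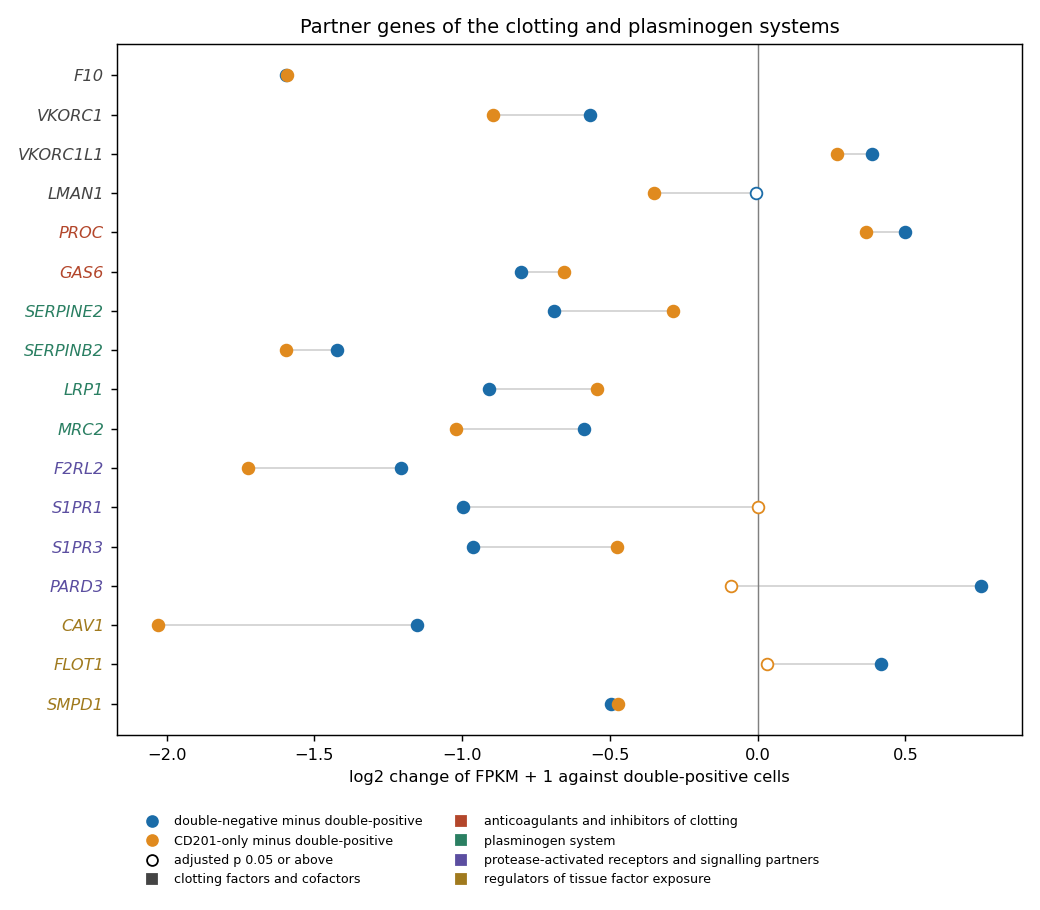
Change of log2(FPKM + 1) against double-positive cells for named partner genes, double-negative cells in blue and CD201-only cells in orange; open points have an adjusted p of 0.05 or above and label colours mark the list. CAV1 has the lowest value in CD201-only cells (-2.03), and S1PR1 is low in double-negative cells, by about 1 unit, but at 0.00 in CD201-only cells.

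Likeness of pattern was measured as the root-mean-square distance between log2(FPKM + 1) values centred on each gene's mean over the 6 libraries. Among the 10 genes, the nearest pairs were TFPI2 with F2R (0.119), TFPI2 with PLAUR (0.176), PLAUR with F2R (0.181) and PROCR with PLAT (0.198). F3 and F2RL1 stood at 0.205 from each other. Among 8271 candidates averaging 5 FPKM or more, the 5 nearest to PROCR were NGEF (0.0676), ITGB4 (0.071), IGF2 (0.0801), VSIR (0.105) and IGFBP6 (0.106). NGEF averaged 5.17 FPKM in double-negative, 15.9 FPKM in CD201-only and 17.4 FPKM in double-positive cells, and IGF2 189.4, 457.2 and 549.6 FPKM in the same groups. The nearest gene to PLAT was CRISPLD2 (0.0449), to PLAU the chemokine CXCL1 (0.0323), to PLAUR the metalloproteinase inhibitor TIMP1 (0.0688), to TFPI2 ADAM12 (0.0461), to F2R the complement protease C1S (0.0406), to THBD NNMT (0.0806), to TFPI AZGP1 (0.117), to F3 C19orf48 (0.0142) and to F2RL1 XRCC5 (0.0241). Distances are smaller for genes that change little.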

How the data were processed

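The deposited FPKM values were made with STAR and Cuffnorm and the builds hg19 and GRCh37 are named, per the submitters' processing notes. Versions, options and annotation were not given in the sources used here, and Cuffnorm can rescale libraries. The authors' 6 columns were matched to the labels and used as deposited.

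Genes averaging 1 FPKM or more were tested on log2(FPKM + 1), which understates ratios of low genes, with limma 3.58.1 in R 4.3.3: a coefficient per group, a variance trend, and Benjamini-Hochberg adjustment over all tested genes within each comparison. Calls needed an adjusted p under 0.05. The fit was checked on simulated data. Each change is first-named minus second-named group. Median-ratio rescaling moved the median change of all genes in double-negative against double-positive cells from 0.11 to 0.02 and the share of calls that were higher from 63.2% to 50.2%. In CD201-only against double-positive cells that share moved from 61.0% to 51.0%, and in double-negative against CD201-only cells from 56.6% to 46.4%. The members and lists were chosen with earlier results of these data known.

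Genes were named by a rule, which took all 10 members and ANPEP. From each partner list it took up to 4 genes with the largest absolute change in any comparison, among those called there without overlap of the groups. PROC, PROS1, F2, F7, F10, PLG, SERPINE2, F2RL2 and F2RL3 were taken in any case. So were the 3 most abundant genes of each marker list and the nearest genes by pattern. C10orf55, ANXA5 and further genes of the marker lists were named after their values were seen. Some genes this rule picks are not reported here, though the counts and medians of the lists include them. Of the other marker lists, 12 keratinocyte genes (led by KRT6A, SFN and PERP) summed to 72.3 to 75.8 FPKM in double-negative, 169.3 to 169.4 in CD201-only and 208.8 to 211.6 in double-positive cells, 11 trophoblast genes found of 12 (HAND1, PGF and TFAP2C) to 121.5 to 122.2, 181.6 to 183.0 and 118.6 to 121.3, and 12 blood genes (CD34, CD68 and CD14) to 47.5 to 48.7, 68.9 to 70.3 and 113.3 to 118.2. In each group 4 keratinocyte and 6 trophoblast genes were under 1 FPKM in both libraries, as were 7 or 8 blood genes. TP63 and PTPRC reached at most 0.0405 and 0.886 FPKM, and CGB3, PPBP and GATA1 were listed at 0 throughout. SFN, PERP and CD34 had their highest mean in CD201-only cells, KRT6A, CD68 and CD14 in double-positive cells. Tables and plots used Python 3.11.15, numpy 2.4.6, pandas 2.3.3 and matplotlib 3.10.9.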

Additional observations from a re-analysis of the deposited data

How the results depend on the processing

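Of 501 recomputed gene values under 17 alternatives, 473 kept direction and call, and 22 of 30 gene comparisons kept both throughout. Signs turned for TFPI without double-negative replicate 1 (0.19; range over left-out libraries -0.32 to 0.19) and PLAUR without double-negative replicate 2 (0.029; range -0.0731 to 0.029), both in double-negative against CD201-only cells and called in none of these fits. With a mean of at least 5 FPKM, 7 of the 10 genes were tested and 1 was higher in double-negative against double-positive cells. Higher calls in CD201-only against double-positive cells ranged from 1 to 3 as each library was left out. Among the 41 tested partner genes, 9 were higher in double-negative against double-positive cells under median-ratio rescaling, against 14 without it, and between double-negative and CD201-only cells 6 to 11 were lower as each library was left out, 6 of them without CD201-only replicate 1, against 10. The cause was not tested. The labels do not say whether libraries with the same replicate number belong together. Correlations of replicate deviations between groups were low (0.08, -0.07 and 0.12), which cannot settle it. With the replicate block 10, 10 and 8 of the 10 genes were called in the 3 comparisons, against 10, 9 and 7. Averaging the double-negative libraries was chosen after seeing the data. Depth limits THBD, whose double-negative values rest on about 5.67 and 16.2 fragments; with a pseudocount of 0.1 its change in double-negative against double-positive cells was -3.13, beside -1.48 with 1.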
